A study of Mus musculus with 14 samples.

Results

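The transcripts described here are 9 mRNAs that have been reported as bound or repressed by Roquin: Icos, Tnfrsf4, Tnf, Nfkbid, Nfkbiz, Nfat5, Il6, Hmgxb3 and Irf4. They were chosen by name, and every probe carrying one of these names was taken, which gave 25 of the 56605 different probes on the array, whose probes carry 36870 different gene or transcript names. RNA of CD4+ T-cells was measured on 14 one-colour arrays, 7 from Roquin san/+ mice and 7 from wild-type mice. Roquin san/+ animals carry 1 copy of the sanroque point mutation of Rc3h1, the gene for Roquin-1, in all cells, and wild-type animals carry none. Neither age, sex, tissue of origin nor any treatment is given for either group in the sources used here, and nothing says whether each array holds RNA of a separate animal, so the p-values measure the spread between these arrays.

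Roquin-1 is an RNA-binding protein that recognises short stem-loops, the constitutive decay elements, in the 3' untranslated regions of its targets and recruits the CCR4-NOT complex, which removes the poly(A) tail and starts decay of the mRNA. The sanroque mutation weakens this repression, and the mouse strain is known for raised Icos on T-cells and an excess of follicular helper T-cells (Tfh). The comparison asks whether the level of each target mRNA differed between Roquin san/+ and wild-type CD4+ T-cells. An array reads how much of an mRNA is present and gives no separate value for its decay. In RNA of a whole cell preparation, fewer cells of a type and less RNA per cell cannot be told apart.

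Some of the arrays stood apart from the rest. The grid of 2 arrays, replicate G of Roquin san/+ and replicate E of wild-type, had been read 2 rows away from the probe names. The correlation with the median array rose from 0.014 to 0.909 and from 0.015 to 0.889 once the spots were moved back, and all values below are given after that move. On both arrays only 23.6% and 21.4% of spots were called well above background, against 55.4% to 76.5% on the 12 well-placed arrays. Roquin san/+ replicate C was dim, with a 75th percentile of the processed signal of 107 against at least 339 on every other array. Roquin san/+ replicate F had the lowest mean of 5 T-cell markers of any array (0.09 on the log2 scale) and the highest means of the B-cell, myeloid, NK, CD8 and erythroid marker lists. Wild-type replicate C had the next lowest T-cell mean (0.49), and the other arrays ran from 0.64 to 1.85. Cd4 itself read -1.35 on Roquin san/+ replicate F and -0.71 on wild-type replicate C, against 0.01 to 0.75 elsewhere. Slide 1 held 5 Roquin san/+ and 2 wild-type arrays and slide 2 held 2 and 5, and the genotypes were thus unevenly spread over the slides.

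A level is the log2 processed signal of a probe minus the 75th percentile of its array, and a difference is the mean of the Roquin san/+ arrays minus the mean of the wild-type arrays on this scale. Levels of different probes are not set against each other, because probes bind with different strength. Of the 25 probes, 19 entered the limma fit, which covered 27865 probes. Each of the 19 was well above background on all 6 well-placed arrays of both genotypes, so that none had passed through one genotype alone. They covered 8 of the 9 genes, and Il6 was left without a tested probe.

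After Benjamini-Hochberg adjustment over all probes, limma called none of the 19 target probes and none of the 27865 (0% of those tested). The lowest adjusted p was 0.868, for the targets as for all probes. At an unadjusted limma p below 0.05 there were 3 of 19 target probes, 1 each for Icos, Tnf and Irf4, and 1071 of all probes (3.84%). A positive difference was seen for 18 of the 19 target probes, against 60.5% of all probes. The median difference was 0.33 for the 19 target probes and 0.07 for all probes. The target median was 0.18 after quantile normalization (all probes -0.08) and 0.16 with the percentile over all probes (all probes -0.10). It was 0.15 from the authors' log2 values (all probes -0.07). Within slide 2 it was 0.13 (all probes -0.09), and without wild-type replicate C it was 0.21 (all probes 0.05). Probes of 1 gene read transcripts of the same gene, so the 19 are not independent. The background depended on the scaling: the median difference of all probes ran to 0.24 after normexp background correction and to -0.10 when the percentile was taken over all probes. The 18 of 19 fell to 11 of 19 after quantile normalization (39.7% of all probes higher) and to 12 of 19 from the authors' log2 values (39.4%).

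**Figure D1:**
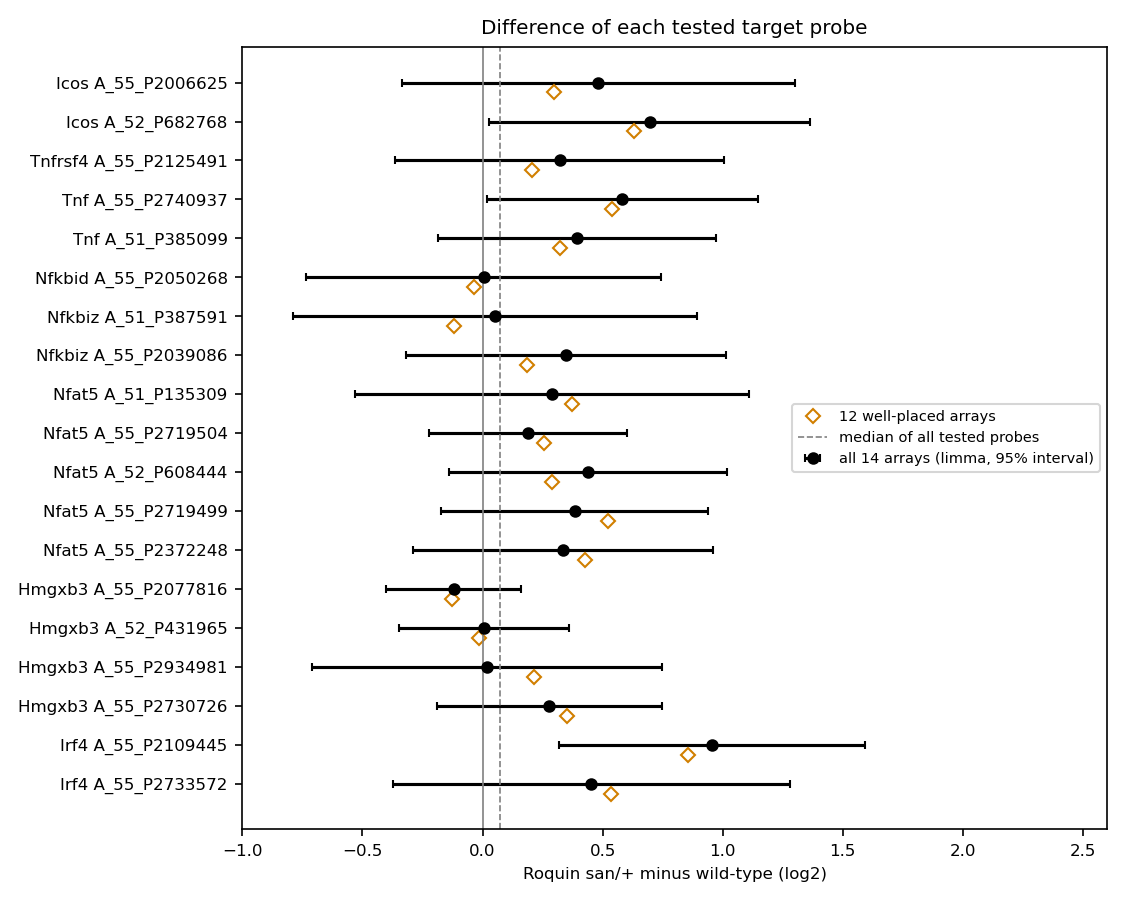
Roquin san/+ minus wild-type difference (log2, horizontal axis) of the 19 tested target probes. Circles and bars give the limma estimate over all 14 arrays with its 95% interval, diamonds the 12 well-placed arrays, and the dashed line the median of all tested probes (0.07). The intervals of 3 probes, Icos A_52_P682768, Tnf A_55_P2740937 and Irf4 A_55_P2109445, lie above 0 before adjustment for the number of probes.

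Icos, the inducible costimulator that sustains follicular helper T-cells, was read by 2 probes. The brighter one, A_52_P682768, lies at position 3160 of its transcript (mm9 chr1:61057071-61057130, plus strand). Its level on the Roquin san/+ arrays A to G was 0.09, -0.20, -0.24, 0.20, -0.03, -1.53 and 0.52. On the wild-type arrays A to G it was -0.67, -0.34, -1.98, -0.34, -0.57, -1.10 and -1.05. Thus 6 of 7 Roquin san/+ arrays lay above every wild-type array, and the exception was replicate F, which lay below all wild-type arrays but replicate C. The mean was -0.17 ± 0.65 (SD, n = 7) in Roquin san/+ and -0.86 ± 0.58 (SD, n = 7) in wild-type, a difference of 0.70 with an SE of 0.31, or 1.62-fold. The two-sided exact permutation p over all arrangements of the 14 arrays was 0.0548, and the adjusted limma p was 0.868. The 2 arrays with low Icos were also those with the lowest T-cell marker means. Without Roquin san/+ replicate F the difference was 0.92 (exact permutation p = 0.00175, adjusted limma p = 0.976), and without wild-type replicate C it was 0.51 (exact permutation p = 0.11). On the 12 well-placed arrays it was 0.63 (exact permutation p = 0.110), and without replicate F as well it was 0.88 (exact permutation p = 0.0108). It was 0.81 within slide 1 (exact permutation p = 0.286) and 0.86 within slide 2 (exact permutation p = 0.238).

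The second Icos probe, A_55_P2006625, lies at position 750 of another transcript (mm9 chr1:61052582-61052641). In Roquin san/+ its lowest, median and highest levels were -4.74, -3.39 and -1.92, and in wild-type they were -5.06, -3.65 and -3.29. The groups overlapped, with 2 of 7 Roquin san/+ arrays above all wild-type ones, and the difference of 0.48 (SE 0.38) was smaller than the spread between arrays (exact permutation p = 0.265). It was 0.24 without Roquin san/+ replicate G and 0.28 without wild-type replicate C. Replicate F was again the lowest and replicate G the highest of the Roquin san/+ arrays. The part of the other cells in Icos was not tested. Of the Tfh markers, all 6 tested (Cxcr5, Bcl6, Pdcd1, Il21, Sh2d1a and Tox2) had a positive difference with a median of 0.65, and none passed the adjusted test or had an unadjusted p below 0.05. Their mean level was highest on Roquin san/+ replicate G (-0.23) and lowest on wild-type replicate C (-3.54), the arrays with the highest and the lowest Icos.

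**Figure D2:**
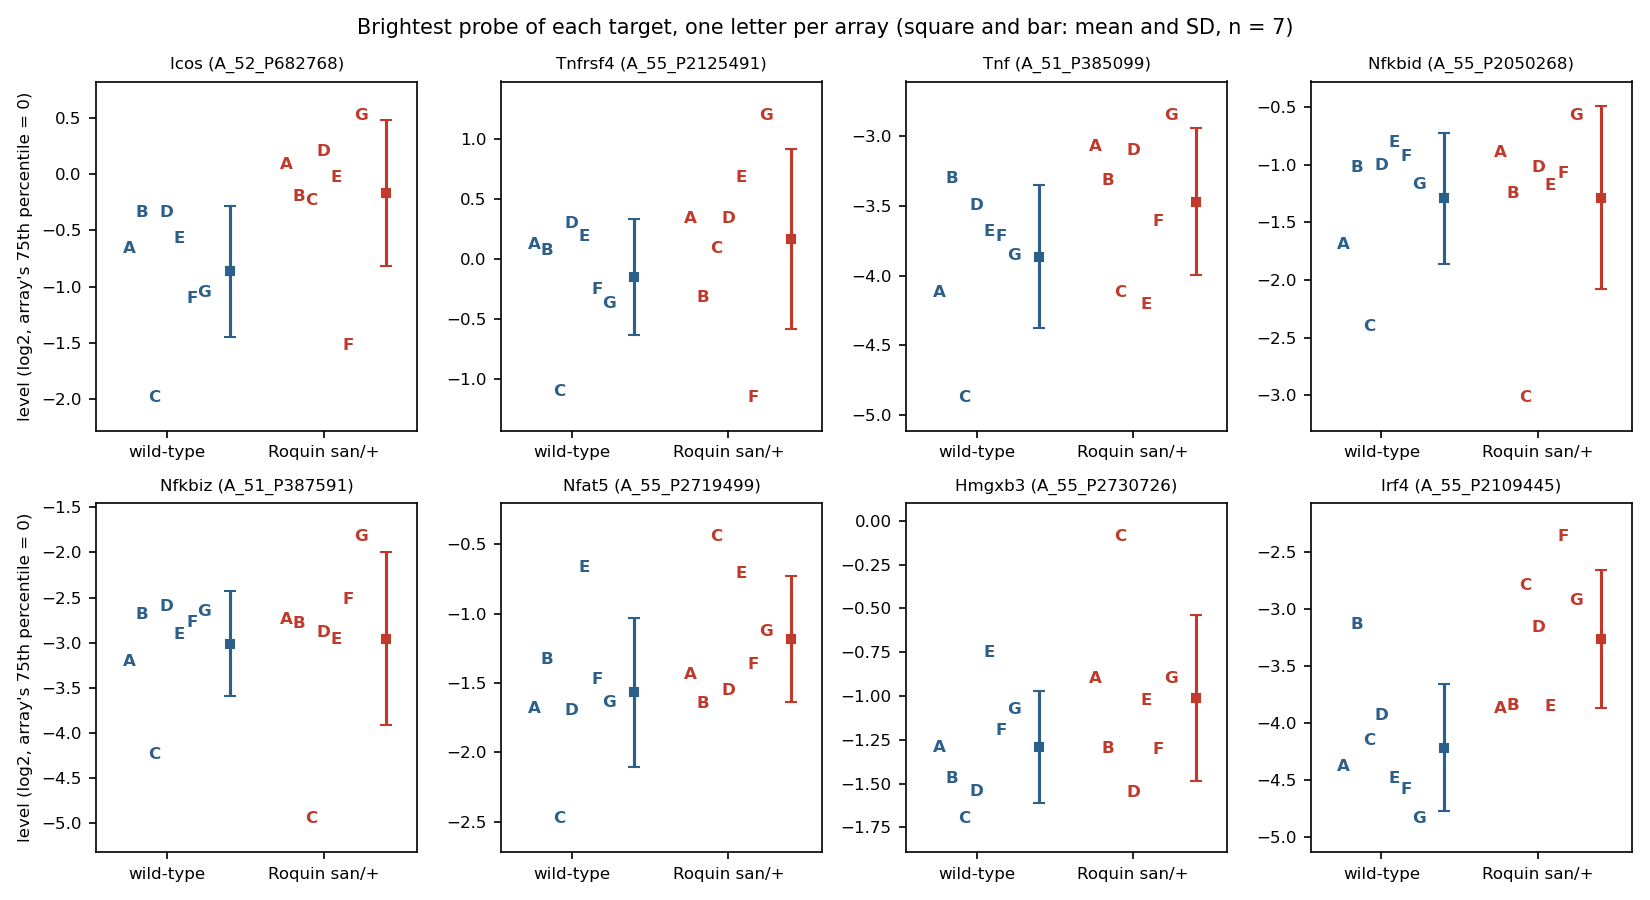
Level of the brightest probe of each of the 8 tested targets (log2, vertical axis, where 0 is the 75th percentile of the array) on the wild-type (blue) and Roquin san/+ (red) arrays. Letters are the replicates, and squares with bars give the mean and SD of 7 arrays. Icos was above all wild-type arrays on 6 of 7 Roquin san/+ arrays, and Nfkbid and Nfkbiz had their lowest value on the dim Roquin san/+ replicate C.

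Tnfrsf4 encodes OX40, a costimulatory receptor of activated T-cells, and was read by a single probe, A_55_P2125491 (mm9 chr4:155390639-155390698). The lowest, median and highest levels were -1.16, 0.33 and 1.20 in Roquin san/+ and -1.11, 0.07 and 0.29 in wild-type. As for Icos, replicate F was lowest and replicate G highest among the Roquin san/+ arrays, and replicate C was lowest among the wild-type arrays. The difference was 0.32 (SE 0.32), no larger than the spread between arrays (exact permutation p = 0.359). Without replicate F it was 0.54 (exact permutation p = 0.0763), without Roquin san/+ replicate G 0.15 (exact permutation p = 0.639) and without wild-type replicate C 0.16 (exact permutation p = 0.641). On the 12 well-placed arrays it was 0.20 (exact permutation p = 0.548). The regulatory T-cell markers (Foxp3, Il2ra and Ikzf2) were also lowest in their mean level on Roquin san/+ replicate F (-3.57) and wild-type replicate C (-3.40), and their highest mean was on Roquin san/+ replicate E (-0.97). All 3 had a positive difference with a median of 0.45, 0.76 without replicate F and 0.26 without wild-type replicate C (2 of 3 positive), and none had an unadjusted limma p below 0.05. Their part in Tnfrsf4 was not tested.

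Tnf, the inflammatory cytokine in whose mRNA the constitutive decay element was first described, was read by 2 probes that lie close together on the minus strand of mm9 chr17. Probe A_55_P2740937 (chr17:35336967-35337026) had a lowest, median and highest level of -5.40, -4.39 and -3.70 in Roquin san/+ and of -5.68, -5.06 and -4.27 in wild-type. In 6 of 7 Roquin san/+ arrays it was above the wild-type median, and 2 lay above every wild-type array. The difference was 0.58 (SE 0.26), with an exact permutation p of 0.0554 and an adjusted limma p of 0.868. It was 0.92 within slide 1 and 0.05 within slide 2, and 0.54 on the 12 well-placed arrays (exact permutation p = 0.121). The brighter probe A_51_P385099 (chr17:35336795-35336854) ran from -4.21 to -2.85 in Roquin san/+ and from -4.87 to -3.30 in wild-type, a difference of 0.40 with an SE of 0.27 (exact permutation p = 0.183), and of 0.23 without wild-type replicate C. Both Tnf probes were lowest on wild-type replicate C and, among Roquin san/+ arrays, on replicate E.

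Il6, the cytokine that helps to induce Tfh differentiation, was at or near background. Each of its 2 probes was well above background on 2 of 14 arrays, which were Roquin san/+ replicates B and F for A_55_P2733612 and Roquin san/+ replicate F and wild-type replicate B for A_55_P1997756. Probe A_55_P2733612 read -5.90 and -6.68 on those arrays, and A_55_P1997756 read -5.63 and -8.54. Roquin san/+ replicate F and wild-type replicate B had the highest B-cell marker means of their genotypes, 0.05 and -1.80. No fold change is given for Il6, since both groups were mostly below background.

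Nfkbid and Nfkbiz belong to the IκB family, whose nuclear members bind NF-κB on DNA. Nfkbid encodes IκBNS and Nfkbiz encodes IκBζ, and each was read by probes at different places on its transcript. The probes at positions 1308 of the Nfkbid and 1605 of the Nfkbiz transcript are shown because they read a stretch well before the 3' end, where the brightest probe of each gene lies, and gave a larger difference than it. The difference between probes of 1 gene was not tested. No base is capitalised, and the 2 sequences come from the deposited scanner files.

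Nfkbid A_51_P322954: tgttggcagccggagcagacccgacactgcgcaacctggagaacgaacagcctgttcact
Nfkbiz A_55_P2039086: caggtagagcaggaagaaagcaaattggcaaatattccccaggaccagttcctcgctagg

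The Nfkbid sequence lies at mm9 chr7:31212521-31212580 on the plus strand, and the Nfkbiz sequence at mm9 chr16:55817859-55817918 on the minus strand. Nfkbid A_51_P322954 was flagged as an outlier on wild-type replicate D and was therefore not in the limma fit. Over the other 13 arrays it ran from -3.65 to -3.27 in the 7 Roquin san/+ arrays and from -4.65 to -3.29 in the 6 wild-type arrays, a difference of 0.37 (exact permutation p = 0.0985, 1716 arrangements). All 7 Roquin san/+ arrays were above the wild-type median of -3.72, and 2 of them lay above every wild-type array. The brightest Nfkbid probe, A_55_P2050268 (position 1949, chr7:31213705-31213764), had medians of -1.08 and -1.03, and its difference was 0.00 (SE 0.35, 95% interval -0.74 to 0.74). Its lowest value, -3.01, came from the dim Roquin san/+ replicate C. Without that array the difference was 0.29 (exact permutation p = 0.3). The third Nfkbid probe, A_66_P107225, was well above background on 8 of 14 arrays and was not tested.

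Nfkbiz A_55_P2039086 ran from -5.60 to -3.60 in Roquin san/+ and from -5.55 to -3.95 in wild-type, and the difference was 0.35 (SE 0.31, exact permutation p = 0.314). It was 0.58 without Roquin san/+ replicate E (exact permutation p = 0.0367), 0.18 without wild-type replicate C (exact permutation p = 0.589) and -0.36 within slide 2. The brightest Nfkbiz probe, A_51_P387591 (position 3194, chr16:55812091-55812150), gave medians of -2.79 and -2.78 and a difference of 0.05 (SE 0.39, exact permutation p = 0.895). The dim replicate C was lowest in Roquin san/+ (-4.95), and wild-type replicate C was lowest in wild-type (-4.24). Without Roquin san/+ replicate C the difference was 0.39 (exact permutation p = 0.245), and on the 12 well-placed arrays it was -0.12. Probe A_55_P2714757, which follows a separate transcript model, was well above background on none of the 14 arrays.

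Nfat5, the transcription factor of the response to osmotic stress, had 6 probes along mm9 chr8, and 5 were tested. The 5 were assigned to different transcripts. Probes A_55_P2719499 and A_55_P2719504 follow separate transcript models and lie upstream of the other tested probes on the genome. All 5 had a positive difference, from 0.19 to 0.44. Of these, 2 probes are printed because they read the transcript ahead of its 3' end and were among the dimmest, at the lowest signal of both displaced arrays. The capitals mark ATTTA, the core of AU-rich elements.

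Nfat5 A_51_P135309: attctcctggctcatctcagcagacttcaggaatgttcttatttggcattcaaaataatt
Nfat5 A_55_P2372248: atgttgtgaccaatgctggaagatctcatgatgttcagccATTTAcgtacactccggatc

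Probe A_51_P135309 matches chr8:109893395-109894320 in 2 pieces, since its 60 bases span 926 bases of the genome. Its difference was 0.29 (SE 0.38, exact permutation p = 0.515), and 0.37 without the displaced arrays. Without the dim Roquin san/+ replicate C, its highest array at -4.72, it was 0.01 (exact permutation p = 0.985). With other single arrays left out it was 0.16 without wild-type replicate F, 0.46 without wild-type replicate E and 0.49 without Roquin san/+ replicate E. Probe A_55_P2372248 (chr8:109882604-109882663) had a difference of 0.33 (SE 0.29, exact permutation p = 0.289), 0.42 without the displaced arrays, 0.17 without Roquin san/+ replicate C and 0.21 without wild-type replicate D. The brightest probe, A_55_P2719499 (chr8:109853148-109853207), ran from -1.65 to -0.45 in Roquin san/+ and from -2.48 to -0.67 in wild-type, and 6 of 7 Roquin san/+ arrays lay above the wild-type median. Its difference was 0.38 (SE 0.26, exact permutation p = 0.166), 0.52 on the 12 well-placed arrays (exact permutation p = 0.0671) and 0.53 without wild-type replicate E (exact permutation p = 0.0408). Without wild-type replicate C, its lowest array, it was 0.23 (exact permutation p = 0.334). The probe nearest the 3' end, A_52_P608444 (position 13119, chr8:109903094-109903153), gave 0.44 (SE 0.27, exact permutation p = 0.14), and 0.23 without wild-type replicate C, its lowest array at -4.54. Probe A_55_P2719504 gave 0.19 (exact permutation p = 0.312), 0.11 without Roquin san/+ replicate C, 0.12 without wild-type replicate C and 0.29 without wild-type replicate E. Probe A_52_P204606 was well above background on 5 of 14 arrays and was not tested.

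Hmgxb3, which encodes a protein with an HMG box, was the only tested target with a probe of negative difference. Its 4 probes lie on the minus strand of mm9 chr18. Probes A_55_P2077816 and A_52_P431965 are assigned to RefSeq transcripts, and the others, with the brightest among them, to cDNA clones. Probe A_55_P2077816 (chr18:61290933-61290992) ran from -1.56 to -1.19 in Roquin san/+ and from -1.50 to -1.04 in wild-type. No Roquin san/+ array lay above the wild-type median, and the difference was -0.12 (SE 0.13, exact permutation p = 0.2). The 95% interval of this difference was -0.40 to 0.16. Probe A_52_P431965 differed by 0.01 (95% interval -0.35 to 0.36) and A_55_P2934981 by 0.02 (95% interval -0.71 to 0.75). The brightest probe, A_55_P2730726, differed by 0.28 (SE 0.22, exact permutation p = 0.222), with its highest value, -0.09, on the dim Roquin san/+ replicate C, and by 0.12 without that array (exact permutation p = 0.451). The 4 probes thus differed in sign, and none differed beyond the spread between arrays.

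Irf4 encodes a transcription factor of activated T-cells, and of plasma cells and activated B-cells. It had the highest difference of the 19 target probes. Probe A_55_P2109445 (position 4443, mm9 chr13:30858532-30858591, plus strand) gave levels of -3.87, -3.85, -2.79, -3.16, -3.85, -2.36 and -2.92 on the Roquin san/+ arrays A to G. On the wild-type arrays A to G the levels were -4.38, -3.13, -4.15, -3.93, -4.49, -4.58 and -4.84. All 7 Roquin san/+ arrays lay above the wild-type median and above 6 of the 7 wild-type arrays, and the exception was wild-type replicate B. The mean was -3.26 ± 0.61 (SD, n = 7) against -4.21 ± 0.56 (SD, n = 7), a difference of 0.96 with an SE of 0.30, or 1.94-fold. The exact permutation p was 0.0128, while the adjusted limma p was 0.868. By its unadjusted p of 0.00608 it stood in place 69 of the 27865 probes.

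The 2 arrays with the highest Irf4 of their genotype, Roquin san/+ replicate F and wild-type replicate B, were also those with the highest B-cell marker means. Of the 4 B-cell markers tested, all had a positive difference with a median of 0.85, and without replicate F 3 of 4 had one with a median of 0.15. The mean of the list ran from -5.79 to 0.05 in Roquin san/+ and from -6.21 to -1.80 in wild-type. Without replicate F the Irf4 difference was 0.81 (exact permutation p = 0.0256), and without wild-type replicate B it was 1.14 (exact permutation p = 0.0035). Leaving out each array in turn gave 0.81 to 1.14, with an exact permutation p from 0.0035 to 0.0256. Without both displaced arrays it was 0.86 (exact permutation p = 0.039), and without replicate F as well it was 0.67 (exact permutation p = 0.0801). It was 1.55 within slide 1 (exact permutation p = 0.0476) and 0.51 within slide 2 (exact permutation p = 0.286), where 5 against 2 arrays cannot go below 0.0476. The second Irf4 probe, A_55_P2733572 (position 2371, chr13:30856460-30856519), was dimmer and at the lowest signal of wild-type replicate E. Its difference was 0.45 (SE 0.39, exact permutation p = 0.298), with an opposite sign within slide 2 (-0.22). It was 0.25 without Roquin san/+ replicate C and 0.27 without wild-type replicate F.

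**Figure D3:**
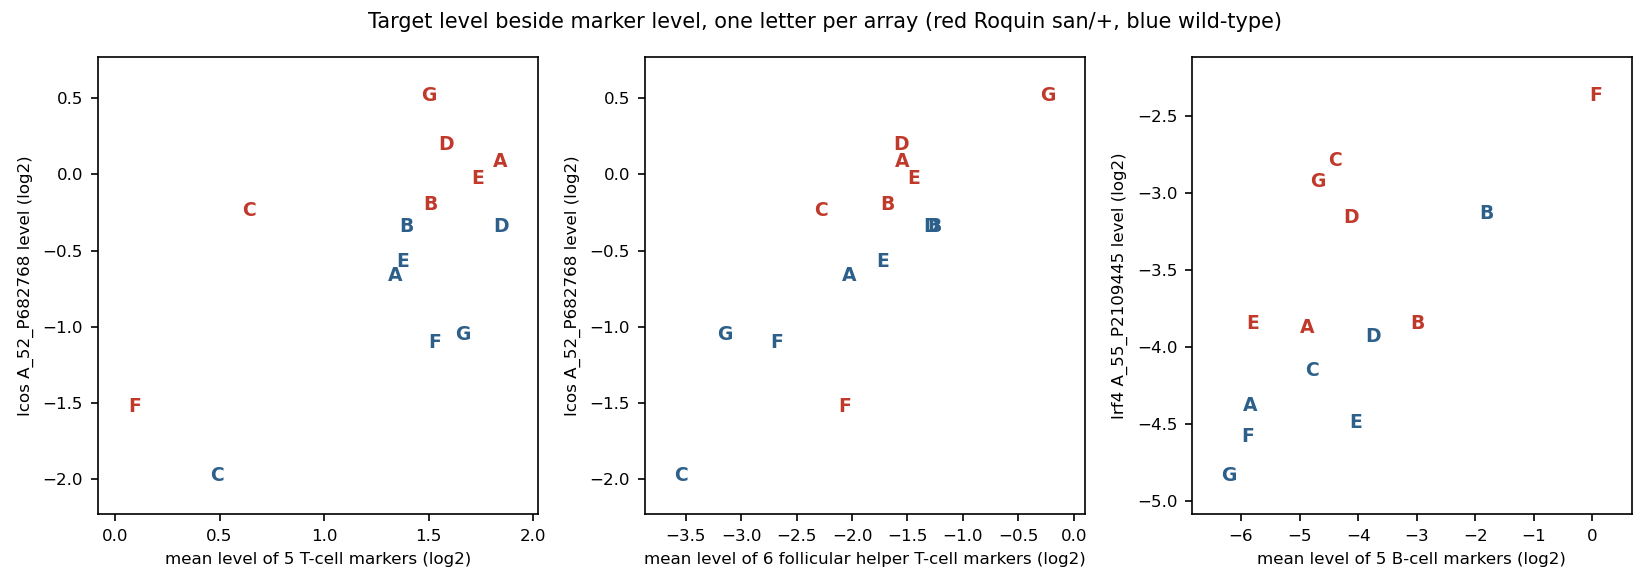
Level of Icos A_52_P682768 against the mean level of 5 T-cell markers (left) and of 6 Tfh markers (middle), and level of Irf4 A_55_P2109445 against the mean level of 5 B-cell markers (right), all on the log2 scale with 1 letter per array. Roquin san/+ replicate F had the lowest T-cell mean (0.09) and the highest B-cell mean (0.05), a low Icos level (-1.53) and the highest Irf4 level (-2.36).

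The genes for proteins that act on these targets came next. The targeted gene, Rc3h1, carries a point mutation that an expression probe cannot read, and its difference was -0.07 (exact permutation p = 0.638), with levels from -2.13 to -1.66 in Roquin san/+ and from -2.36 to -1.32 in wild-type. Rc3h2, which encodes the paralogue Roquin-2, differed by 0.03. Of 15 Roquin and decay partners tested, 8 had a positive and 7 a negative difference with a median of 0.03, and none passed the adjusted test or had an unadjusted p below 0.05. The highest differences of the list were those of Zc3h12d (0.49) and Zc3h12a (0.47), which encode Regnase family endonucleases, and the lowest those of Edc4 (-0.14), a decapping cofactor, and Cnot8 (-0.13), a deadenylase subunit. Zc3h12a encodes Regnase-1, which shares targets with Roquin, and its exact permutation p was 0.0554.

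Among 8 other mRNAs reported as Roquin or Regnase-1 targets, 4 were tested, and all 4 had a positive difference with a median of 0.40, against 60.5% of all probes. The median was 0.24 without Roquin san/+ replicate F. Without wild-type replicate C as well it was 0.15, with 3 of 4 positive. Ctla4, the inhibitory receptor, differed by 0.68 (exact permutation p = 0.0816), Zc3h12a by 0.47 and Rel by 0.33, and none of the 4 had an unadjusted limma p below 0.05. Rel differed by 0.13 without replicate F, and by -0.05 without wild-type replicate C as well. Il2, Ier3, Ptgs2 and Cxcl1 did not pass the detection filter. Of the 3 tested AU-rich element binding proteins, Zfp36l1 (0.13) and Zfp36l2 (0.10) had a positive and Elavl1 (-0.19) a negative difference.

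The differences of the markers of other cells depended in part on replicate F. All 6 myeloid markers had a positive difference with a median of 1.20, and of 0.58 without replicate F, and their mean level ran from -2.54 to 1.84 in Roquin san/+ and from -3.57 to -0.43 in wild-type. All 5 T-cell markers had a negative difference (median -0.10), but without Roquin san/+ replicate F 4 of 5 were positive (median 0.08). All 4 naive T-cell markers had a negative difference (median -0.24, and -0.16 without replicate F). All 4 activated or memory markers had a positive one (median 0.44), against 3 of 4 without replicate F (median 0.34). Of the 2 NK markers tested, 1 had a positive and 1 a negative difference, the only CD8 marker tested had a positive one (0.54, and -0.02 without replicate F), and no erythroid marker passed the detection filter. No marker passed the adjusted test. At an unadjusted limma p below 0.05 there were 3, S100a4 of the activated or memory list (difference 1.07, exact permutation p = 0.000583, the smallest possible), Itgam of the myeloid list (1.77, exact permutation p = 0.0262) and Pax5 of the B-cell list (0.83, exact permutation p = 0.0653). S100a4, a calcium-binding protein, was higher on each of the 7 Roquin san/+ arrays than on any wild-type array. The highest Itgam level, 4.80, was on the dim Roquin san/+ replicate C, and the other Roquin san/+ arrays ran from -1.36 to 1.23. Of all probes, 3.84% had an unadjusted limma p below 0.05. Neither the myeloid nor the B-cell part in the target differences was tested.

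For each target with a probe well above background on all 12 well-placed arrays, the 3 genes with the highest Pearson correlation over those 12 arrays were listed from 18083 named probes, as a description. For Icos they were Synpo (0.939), Pdcd1 (0.936) and Apol9b (0.931), of which Pdcd1 encodes the Tfh receptor PD-1. For Tnfrsf4 they were Tnfrsf9 (0.955), Atp9a (0.942) and Ikzf4 (0.934). For Tnf they were Arid1a, Ifi47 and H2-L, at 0.944 to 0.962. For Irf4 they were Pafah1b3 (0.956), Endou (0.944) and Hepacam2 (0.944). For Nfkbid they included Wdr1 (0.981) and Rab5a (0.977), and for Nfkbiz Galk2 (0.981) and Maml1 (0.978). For Nfat5 they were Camk1d, Cep250 and Zc3h7a (0.940 to 0.949), and for Hmgxb3 Pick1, Hspa4l and Atr (0.977 to 0.990). No target was among the first 3 genes of another. The dim replicate C and replicate F are among the 12 arrays, and their part in these correlations was not tested.

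The probe sequences were searched on both strands for TTCNNNGAA, a loose form of the loop of the constitutive decay element with its closing bases, and for ATTTA. The motif TTCNNNGAA reads the same on both strands and was present in 2 of 25 target probes, 1 of Il6 (A_55_P1997756) and 1 of Hmgxb3 (A_52_P431965), against 2.36% of all probes. ATTTA was present on the mRNA strand of 1 target probe, the Nfat5 probe printed above, against 8.08% of all probes. On the other strand it was present in 2, of Nfat5 and Hmgxb3, and in 5684 of all probes. The probes cover 60 bases of each transcript, and a match in them is a description of the probe.

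**Figure D4:**
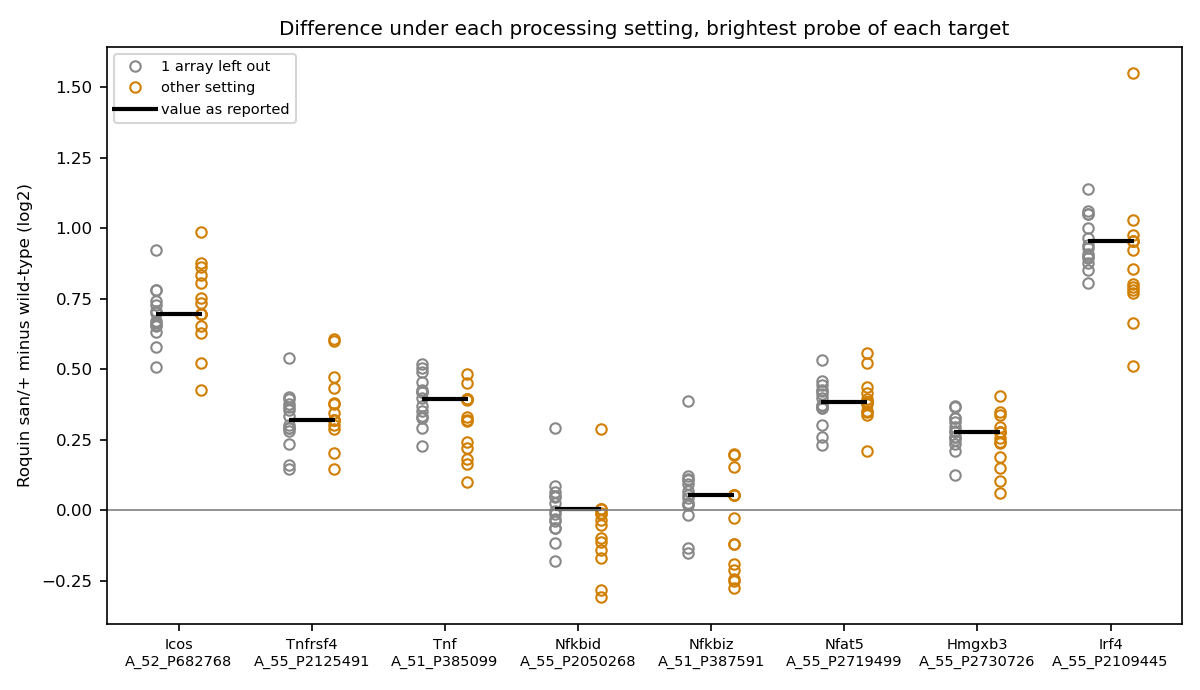
Roquin san/+ minus wild-type difference (log2, vertical axis) of the brightest probe of each of the 8 tested targets under the reported setting (black bar), with 1 array left out (grey) and under the other processing settings (orange). Every Icos, Tnfrsf4, Tnf, Nfat5, Hmgxb3 and Irf4 value plotted is above 0, and Nfkbid and Nfkbiz values lie on both sides of it. The plotted Hmgxb3 probe is assigned to a cDNA clone. The Hmgxb3 probes on RefSeq transcripts, which are not plotted, gave -0.12 and 0.01 under the reported setting. The remaining one, also on a cDNA clone, gave 0.02.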

How the data were processed

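The authors deposited, per array, the scanner output of Agilent Feature Extraction 10.5.1.1 as spot intensity (background-subtracted processed signal) and a table of log2 values, whose normalization is not given in the sources used here. The paper given with the series describes other samples, so only GEO's labels set the groups. Spots of 2 arrays were moved by 2 rows. Control spots and spots with an outlier flag were left out, but the population outlier flags of the 2 moved arrays were not used. Log2 processed signals were scaled by subtracting, per array, the 75th percentile of the 9974 probes that were well above background throughout. Probes well above background on all 6 well-placed arrays of at least 1 genotype (28946) were kept, 27865 of them without a missing value. The test was limma 3.58.1 under R 4.3.3 (Benjamini-Hochberg, threshold 0.05). Each target probe also had a two-sided exact permutation test, whose smallest p is 0.000583. Other steps used Python 3.11.15, numpy 2.4.6 and pandas 2.3.3. On simulated data with 200 of 27865 probes changed, a log2 change of 1 was recovered for 45% and of 2 for 81%. The number of arrays limits the precision. The named genes were all target probes, and the 2 highest and 2 lowest genes of each partner list. Some results are left out here. Members and lists were chosen with earlier results of these data known. Alternatives covered background, scaling, filter, slide, replicate letter, authors' values, probe names and left-out arrays. Leaving out replicate F together with the displaced arrays, or with normexp, and leaving arrays out of the list counts, were chosen after seeing the data.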

Additional observations from a re-analysis of the deposited data

Results flagged for a closer look

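In 38 groups of 7 arrays (19 tested probes in 2 genotypes), 5 had 1 array far from the rest by Dixon's test, for which chance alone gives about 1 group in 20. Icos A_52_P682768 was low on Roquin san/+ replicate F (-1.53, the other 6 arrays -0.24 to 0.52). On Roquin san/+ replicate C, the dim array, Nfkbid A_55_P2050268 was low (-3.01, the others -1.25 to -0.57), Nfkbiz A_51_P387591 was low (-4.95, the others -2.97 to -1.83) and Hmgxb3 A_55_P2934981 was high (-2.09, the others -4.56 to -3.90). On wild-type replicate C, Nfkbiz A_51_P387591 was low (-4.24, the others -3.20 to -2.59).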

How the results depend on the processing

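Under none of the settings did limma call a target probe or any other probe after adjustment, and the unadjusted counts over all probes ran from 50 (probe names as deposited) to 2323 (without wild-type replicate E). With the replicate letter as a block (replicate block), each letter is 1 array per genotype, so the differences and the 18 of 19 positive could not change. With this block, 2 of 19 target probes and 883 of all 27865 probes had an unadjusted limma p below 0.05. Whether the letters pair the arrays is not stated in the labels. The correlation of same-lettered arrays ran from -0.34 to 0.43. It was not set against that of differently lettered arrays and cannot decide the question. The block changed no call. Both Icos probes, Tnfrsf4, both Tnf probes, Nfat5 A_52_P608444 and A_55_P2719499, Hmgxb3 A_55_P2730726 and Irf4 A_55_P2109445 kept a positive difference under every setting run. The count of positive target probes was 11 of 19 after quantile normalization (39.7% of all probes) and 12 of 19 from the authors' log2 values (39.4%). It was 14 of 19 with the percentile over all probes (37.8% of all probes), within slide 2 (40.8%) and without wild-type replicate C (57.9%). Changes of sign were as follows, and their cause was not tested. Nfkbid A_55_P2050268 gave -0.0134 with normexp, -0.111 with quantile normalization, -0.169 with the percentile over all probes, -0.0109 with slide as a block, -0.309 on slide 1, -0.284 from the authors' log2 values, -0.0341 without both displaced arrays, -0.14 with the deposited names, -0.0994 without the displaced arrays and replicate F, and -0.0536 with normexp without replicate F. Nfkbiz A_51_P387591 gave -0.189 (quantile), -0.12 (percentile over all probes), -0.0268 (slide as a block), -0.25 (slide 1), -0.275 (authors' values), -0.118 (without displaced arrays), -0.212 (deposited names) and -0.242 (without displaced arrays and replicate F). Hmgxb3 A_52_P431965 gave -0.144 (quantile), -0.169 (percentile over all probes), -0.00198 (slide as a block), -0.359 (slide 1), -0.288 (authors' values), -0.0134 (without displaced arrays) and -0.123 (deposited names). Hmgxb3 A_55_P2934981 gave -0.108 (quantile), -0.155 (percentile over all probes), -0.131 (slide 2) and -0.169 (authors' values), and Hmgxb3 A_55_P2077816 gave 0.00241 on slide 2. Nfat5 A_51_P135309 gave -0.0967 (quantile), -0.597 (slide 2) and -0.0307 (authors' values), Nfat5 A_55_P2719504 gave -0.102 after quantile normalization and -0.102 on slide 2, and Nfat5 A_55_P2372248 gave -0.0464 (quantile) and -0.0164 (authors' values). On slide 2, Nfkbiz A_55_P2039086 gave -0.361 and Irf4 A_55_P2733572 gave -0.216. With single arrays left out, the range was -0.181 to 0.292 for Nfkbid A_55_P2050268, -0.152 to 0.386 for Nfkbiz A_51_P387591, -0.0788 to 0.0875 for Hmgxb3 A_52_P431965 and -0.301 to 0.138 for Hmgxb3 A_55_P2934981. The lowest level called well above background was -3.55 and -3.34 on the 2 displaced arrays and -6.18 or lower on the others, so dim probes carry values without a detection call, and in part the lowest signal, from those arrays.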
